A study of Mus musculus with 4 samples.

Results

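The proteasome genes examined here were the protein-coding genes whose names begin with Psm, a letter from a to g and a digit. They numbered 48 among the 16467 genes listed for WT and cKO and 47 among the 16180 genes listed for Young and Old. All 47 of the latter were also in the first table, out of 14652 genes in both. The series sequenced total RNA of mouse platelets, the anucleate fragments that megakaryocytes release into blood. Its 4 libraries were each made from the pooled platelets of 7 male mice. WT was from wild-type littermates aged 3 months. The library labelled cKO was from littermates of the same age with a conditional, platelet-specific knockout of HuR, an RNA-binding protein encoded by Elavl1. Young and Old were from wild-type mice aged 3 and 24 months. The Cre line and the promoter that drives it are not given in the sources used here.

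Proteasomes degrade proteins tagged with ubiquitin. The core particle is a barrel of stacked alpha and beta rings in which the beta subunits encoded by Psmb5, Psmb6 and Psmb7 cut peptide bonds. Interferon induces Psmb8, Psmb9 and Psmb10, which take the places of those catalytic subunits and form the immunoproteasome, known for making peptides that are presented on class I molecules. The regulatory particle holds a ring of ATPases (Psmc1 to Psmc6), which unfolds substrates and threads them into the barrel, and non-ATPase subunits (Psmd genes), which bind ubiquitin and remove it. Other caps open the barrel without ATP. They are PA28-alpha and PA28-beta (Psme1 and Psme2), the nuclear PA28-gamma (Psme3) and PA200 (Psme4). Psmf1 encodes PI31, which inhibits the isolated core particle, and dedicated chaperones assist assembly. Platelets carry active proteasomes, and proteasome inhibitors used in patients lower platelet counts.

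Of the 47 genes in both tables, 14 were core subunits, 3 immunoproteasome subunits, 17 subunits of the regulatory particle, 5 activators, 1 the inhibitor and 6 assembly chaperones. The remaining gene, Psmc3ip, matched by name alone: it encodes a partner of meiotic recombinases, and it had 0 reads in WT against 3 in the library labelled cKO, and 0 in Young against 7 in Old. The chaperone gene Psmg3 was listed for WT and cKO alone, with 1 and 5 reads. Psma8 and Psmb11, core subunits specific to testis and thymus, were not analysed here.

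Whole reads were recovered from the deposited values and totalled 17978384 for WT against 17702341 for the library labelled cKO, and 18145612 for Young against 18472149 for Old. The 15 platelet marker genes were all present and made up 5.56% to 6.81% of reads. Elavl1 had 876 reads in WT and 1481 in the library labelled cKO, a ratio of 1.66 (95% counting interval 1.53 to 1.81), so the targeted message was not lower where the label predicts it, and the reads do not say whether the counted part of the gene was the deleted one. Every group had 1 library. The ratios given are ratios of reads over library sizes scaled by the trimmed mean of M-values (TMM), with exact 95% intervals that cover counting error alone and say nothing of how far separate pools of mice would differ. Higher or lower was called for a gene whose whole interval lay at least 1.5-fold from 1 and whose reads reached 100 in the better covered library. In RNA of a whole preparation, fewer cells of a type and less RNA per cell cannot be told apart.

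Proteasome messages were present at moderate levels throughout. The 47 genes together took 0.0871% of reads in WT (exact 95% interval 0.0858% to 0.0885%) against 0.0879% in the library labelled cKO, and 0.0934% in Young against 0.0821% in Old. The median level per gene length was 4.80 reads per kilobase of gene and 1e6 reads (RPKM) in WT against 3.75 in the library labelled cKO, and 4.76 in Young against 3.66 in Old. The medians of all listed protein-coding genes on that scale lay between 0.746 and 0.937. Subunits that occupy 1 position each in the finished barrel did not have equal reads or equal levels per gene length. Within the core, the level per length was highest for Psmb5 (14.5 to 25.2 RPKM over the libraries). It was lowest for Psmb7 (1.49 to 2.60 RPKM), also a catalytic subunit, and the ratio between them was 7.98 to 9.77. That ratio depends on the deposited gene lengths, 899 bases for Psmb5 and 3421 for Psmb7, which may differ from those of platelet transcripts. In WT these genes had 306 and 146 reads, and by reads the extremes of the core were Psmb1 (618) and Psmb6 (130). Of the short sequence words of Psmb5, 54.1% were also found in other genes. In the regulatory particle the ubiquitin receptor gene Psmd4 was highest in every library, at 25.3 to 28.8 RPKM. Psme1 was at 25.6 to 28.3 RPKM over the 4 libraries.

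**Figure D1:**
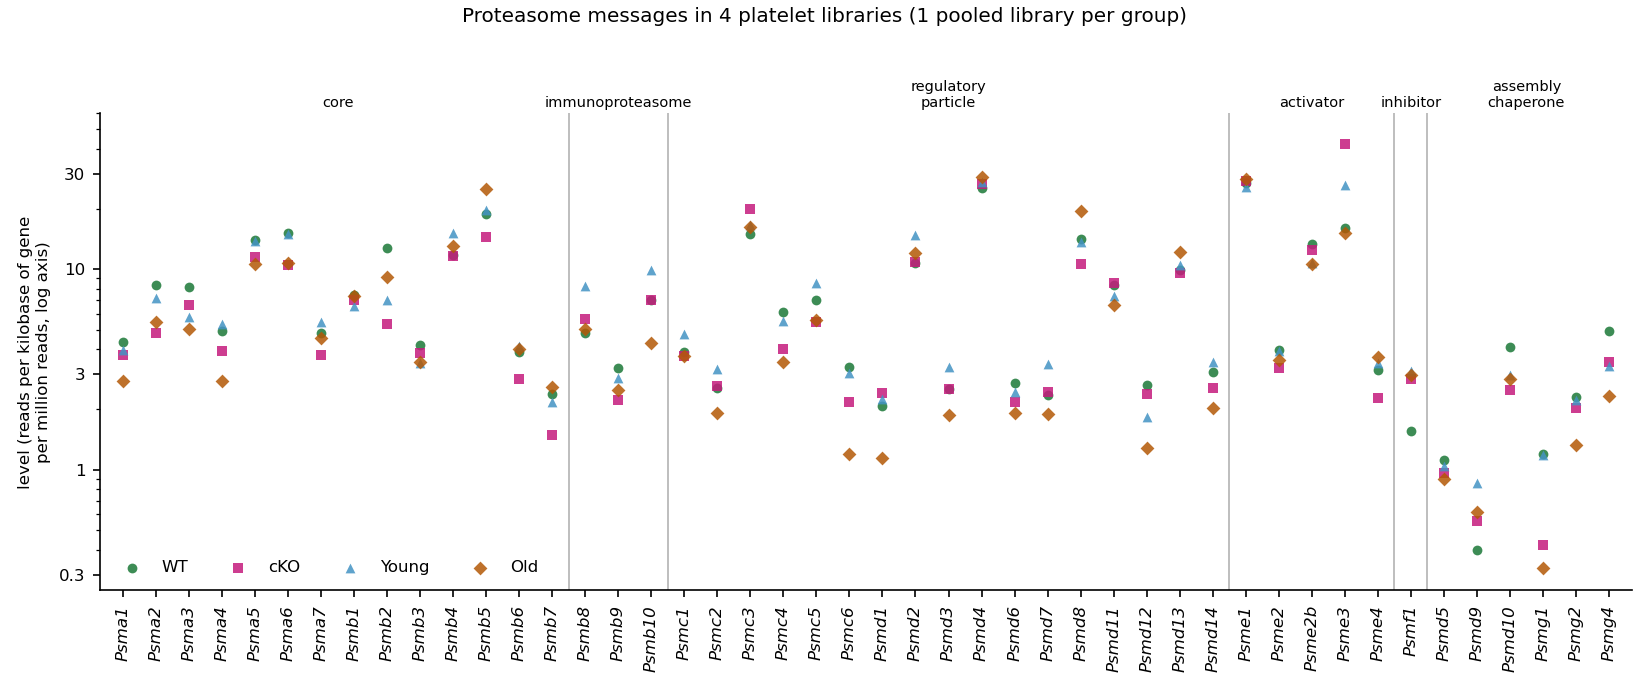
Level of each proteasome gene per gene length (RPKM, log axis) in the 4 pooled libraries, 1 point per library, grouped by role; Psmc3ip and Psmg3 are left out. Psme3 stands highest in the library labelled cKO at 42.1, and Psmc6 and Psmd1 lie lowest in Old at 1.19 and 1.14.

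The comparison of the library labelled cKO with WT asks what platelets labelled as lacking HuR contain. Psme3, encoding PA28-gamma, was the member called higher. It had 851 reads in WT against 2196 in the library labelled cKO, and 1407 in Young against 827 in Old. The library labelled cKO was the highest of the 4, and WT and Old were the lowest. The ratio to WT was 2.54 (2.34 to 2.75), and with Young as the reference it was 1.71 (1.60 to 1.83), also called higher. WT itself stood at 0.661 of Young (0.606 to 0.720), so the 2 wild-type libraries of the same age differed beyond counting error. In the authors' deposited table Psme3 had a log2 fold change of 1.34 and an adjusted p of 0.0415, the 1 member of 47 under 0.05 there (2.13%, against 3.79% of all genes).

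Psmb2 and Psma2 were called lower. Psmb2, a structural subunit of the beta ring, had 276 reads in WT against 114 in the library labelled cKO, and 154 in Young against 203 in Old. Its ratio to WT was 0.406 (0.323 to 0.506). WT was the highest library and was itself called higher than Young, at 1.96 (1.60 to 2.40); against Young the library labelled cKO was at 0.812 (0.632 to 1.04), which was not called. Psma2, an alpha ring subunit, had 553 reads in WT against 313 in the library labelled cKO, and 481 in Young against 372 in Old. Here the library labelled cKO was the lowest of the 4, with a ratio to WT of 0.556 (0.482 to 0.640) and to Young of 0.714 (0.617 to 0.825), the latter not called. In the authors' deposited table the adjusted p was 0.0754 for Psmb2 and 0.289 for Psma2.

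These 3 calls, 1 higher and 2 lower, were out of 41 members that had the 100 reads. Of all 6273 genes that had them, 7.24% were called higher and 6.28% lower, together a background share of 13.5%. With a bound of 2-fold, which 4.22% of genes passed, Psme3 alone was called. Against Young, Psme3 was the 1 call among 42 members, where the background share was 10.5%. The 6 members not evaluated were Psmd7, Psmd9, Psmg1, Psmg2, Psmg4 and Psmc3ip.

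Most of the other members had ratios below 1, and none of them was called. Of the 46 members whose reads over both libraries came to 20 or more, 38 had a ratio below 1 and 8 above, and the median log2 ratio was -0.27, against -0.01 for all genes (5849 below and 5688 above). The whole interval lay below 1 for 18 members and above 1 for 3, which were Psme3, Psmf1 and the ATPase gene Psmc3. Of the 11537 genes with as many reads, 26.4% had such an interval below 1 and 26.5% above. The number above 1 was 13 with scaling by total reads and 11 with DESeq2 size factors.

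Core particle genes had ratios in 1 direction but of unequal size. All 14 were below 1 under each of the 3 scalings, from 0.406 for Psmb2 to 0.954 for Psmb4, and 10 intervals lay wholly below 1. Their reads summed to 4560 in WT against 3488 in the library labelled cKO, and to 4289 in Young against 3937 in Old. The library labelled cKO was the lowest and WT the highest. The summed ratio to WT was 0.752 (0.719 to 0.785), to Young 0.892 (0.853 to 0.933), and of WT to Young 1.16 (1.11 to 1.21). Among the alpha ring genes, the ratio to WT ran from 0.556 for Psma2 to 0.834 for Psma1, with 0.668 for Psma6, and Psma3, Psma4, Psma5 and Psma7 between 0.753 and 0.798. The catalytic subunits Psmb5, Psmb6 and Psmb7 were at 0.742, 0.710 and 0.606, all with intervals below 1, while Psmb1, Psmb3 and Psmb4 were between 0.875 and 0.954 with intervals that included 1. Against Young, 10 of the 14 were below 1.

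Regulatory particle genes were nearer to 1, with a summed ratio of 0.952 (0.921 to 0.985) and a median log2 ratio of -0.10. The ATPase genes differed among themselves although their products form 1 ring. Psmc3 had 703 reads in WT and 918 in the library labelled cKO, a ratio of 1.28 (1.16 to 1.42). Psmc4, with 238 and 154 reads, was at 0.636 (0.516 to 0.782), and Psmc6, with 204 and 135, at 0.650 (0.519 to 0.812). Of the non-ATPase genes, Psmd8, a lid subunit, was the one whose interval lay below 1, at 0.721 (0.646 to 0.804). The abundant genes Psmd4, Psmd11 and Psmd2 were at 1.02, 0.988 and 0.971.

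No activator other than Psme3 was called. Psme1 had 1073 reads in WT and 1080 in the library labelled cKO, a ratio of 0.989 (0.908 to 1.08). Psme4, the PA200 gene, had 476 and 338 reads and a ratio of 0.698 (0.605 to 0.804), which was not called. Psme2 shares 28.3% of its 50-base words, and its copy Psme2b 69.3%, with transcripts of other genes, chiefly each other, so reads could be divided between them. Summed, they were at 0.853 (0.725 to 1.00). Psmf1, the PI31 gene, had 180 reads in WT against 323 in the library labelled cKO, and 364 in Young against 354 in Old, so that WT alone was low. Its ratio to WT was 1.76 (1.47 to 2.13), just short of the bound, and to Young 0.973 (0.835 to 1.13). With scaling by total reads the ratio to WT was 1.82 (1.51 to 2.199), which was called higher and made 4 calls among the members, where the background share was 13.8%. With TMM, WT over Young was called lower at 0.540 (0.449 to 0.648), and Old over WT higher at 1.97 (1.64 to 2.37).

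Assembly chaperones were thinly covered. Psmg1, which pairs with Psmg2 to assist assembly of the alpha ring, had 29 reads in WT against 10 in the library labelled cKO, and 29 in Young against 8 in Old. The ratio to WT was 0.339 with an interval of 0.147 to 0.715. Psmd5, Psmd9 and Psmd10, which escort the base of the regulatory particle, had 146, 52 and 108 reads in WT and 123, 71 and 65 in the library labelled cKO. Psmg2 had 44 and 38 reads and Psmg4 49 and 34.

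**Figure D2:**
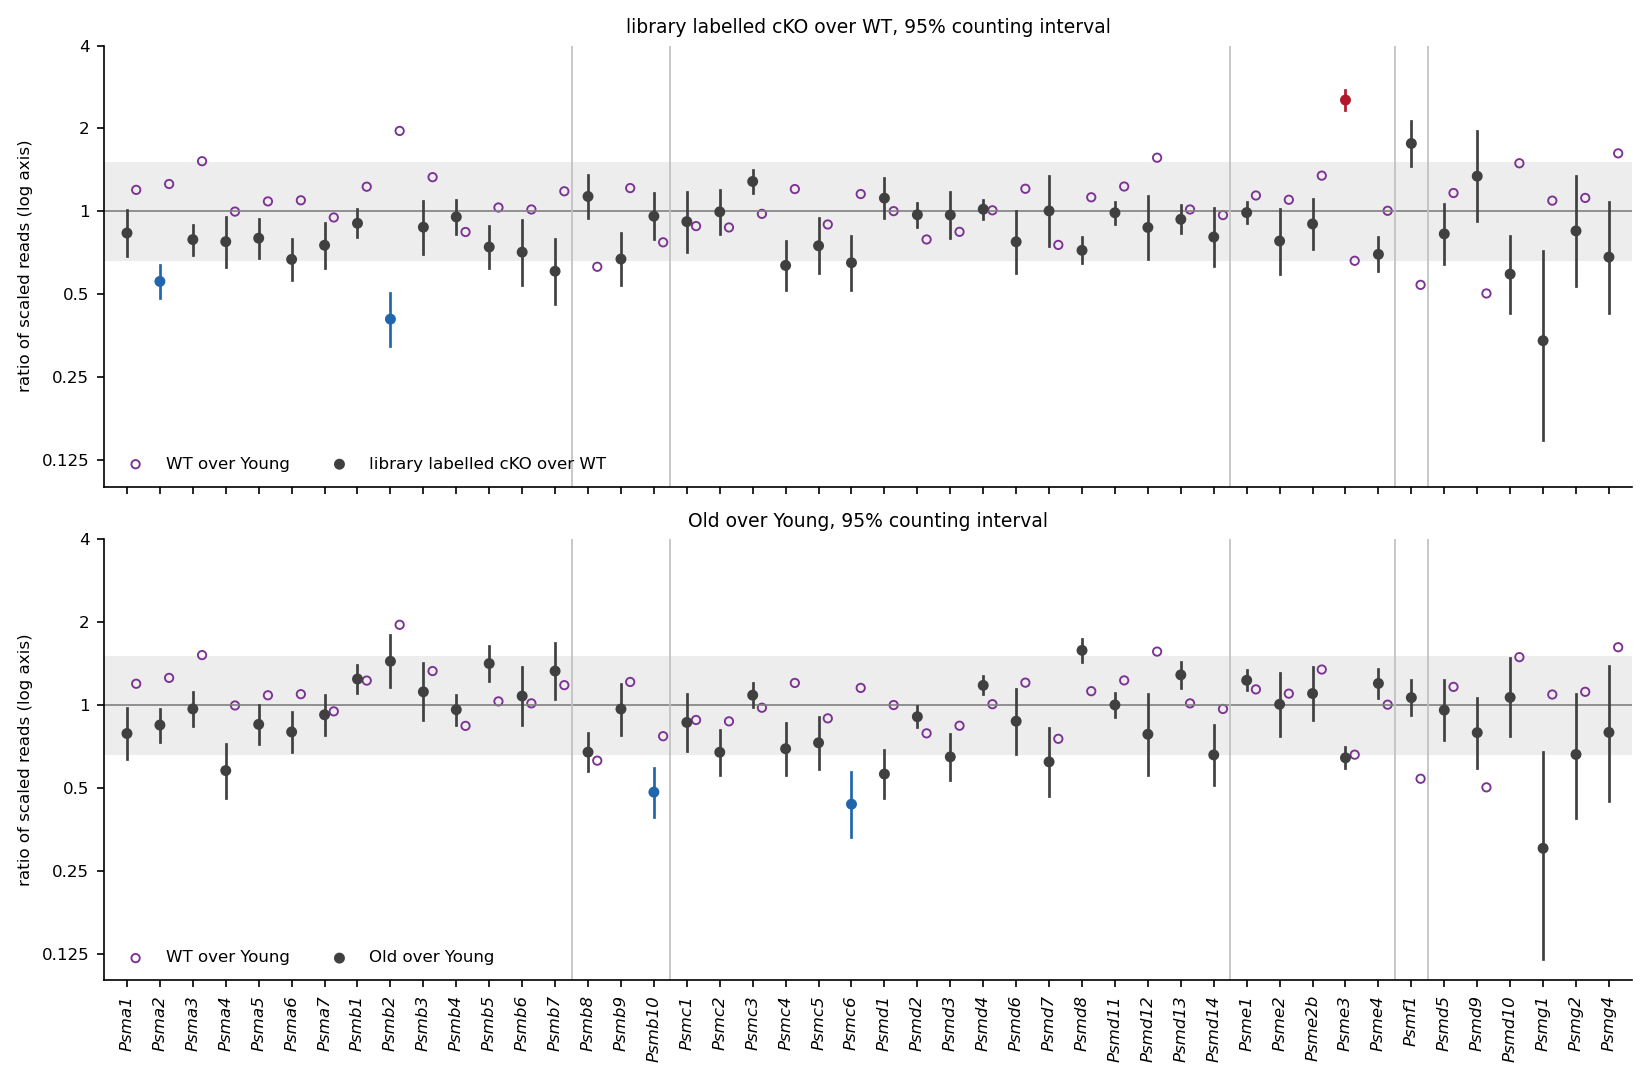
Ratio of scaled reads for each member (log axis) for the library labelled cKO over WT (top) and Old over Young (bottom), filled points with exact 95% counting intervals, in red where called higher and in blue where called lower; open circles give WT over Young and the grey band spans 1.5-fold either way. At the top the whole interval of Psme3 is above the band and those of Psmb2 and Psma2 are below it. At the bottom those of Psmb10 and Psmc6 are below it. Other filled points lie outside the band with intervals that reach into it.

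Markers of other blood cells moved in the same comparison. The 13 erythroid markers summed to 148476 reads in WT against 284717 in the library labelled cKO, and 390573 in Young against 207524 in Old. In the library labelled cKO over WT, 10 of the 11 with enough reads were called higher and 1 lower. Of all genes with enough reads, 7.24% were called higher and 6.28% lower. Ahsp was not listed. The 15 platelet markers summed to 1114162 reads in WT and 983993 in the library labelled cKO. Of 14 with enough reads, 3 were called lower, P2ry12, Selp and Tubb1, and 0 higher. Itga2b was the 1 of the 14 with a ratio above 1, at 1.40 (1.39 to 1.41), not called. The part of these blood cells in the proteasome ratios was not tested.

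Young and Old differ in age, and that comparison gave other members. Psmb10 and Psmc6 were called lower in Old. Psmc6, an ATPase, had 204 reads in WT against 135 in the library labelled cKO, and 193 in Young against 77 in Old. Old was the lowest library by a wide margin. The ratio to Young was 0.437 (0.331 to 0.572) and to WT 0.378 (0.287 to 0.494), called lower against both. Against WT the calls were Psmc6 lower and Psmf1 higher, out of 41 members and with a background share of 25.3%. In the authors' deposited table its log2 fold change was -1.19 with a p of 0.00973 and an adjusted p of 0.0651. Psmb10 is described with its catalytic relatives below.

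Those were 2 lower and 0 higher calls among 41 members with enough reads. Of all 6519 genes, 10.4% were called higher and 12.9% lower, together a background share of 23.3%, and with a bound of 2-fold, which 8.56% of genes passed, no member was called. In the authors' deposited table, of 47 members, 0 had an adjusted p under 0.05, against 12.4% of all genes, and 4 had an unadjusted p under 0.05 (8.51%, against 27.2%). The median log2 ratio of 46 members was -0.17, against -0.06 for all genes; 29 were below 1 and 17 above. Scaling by total reads lowered the median of all genes to -0.22 and that of the members to -0.32, and then 5 members were called lower, the others being Psma4, Psmd1 and Psme3; the background share was then 25.7%. Platelet markers moved in this comparison as well. They summed to 1029952 reads in Young and 1258843 in Old, with 7 of 14 called higher in Old, 0 lower and a median log2 ratio of 0.59. Erythroid markers were called lower for 4 of 10, with a median of -0.54. The part of either in the ratios of Old to Young was not tested.

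**Figure D3:**
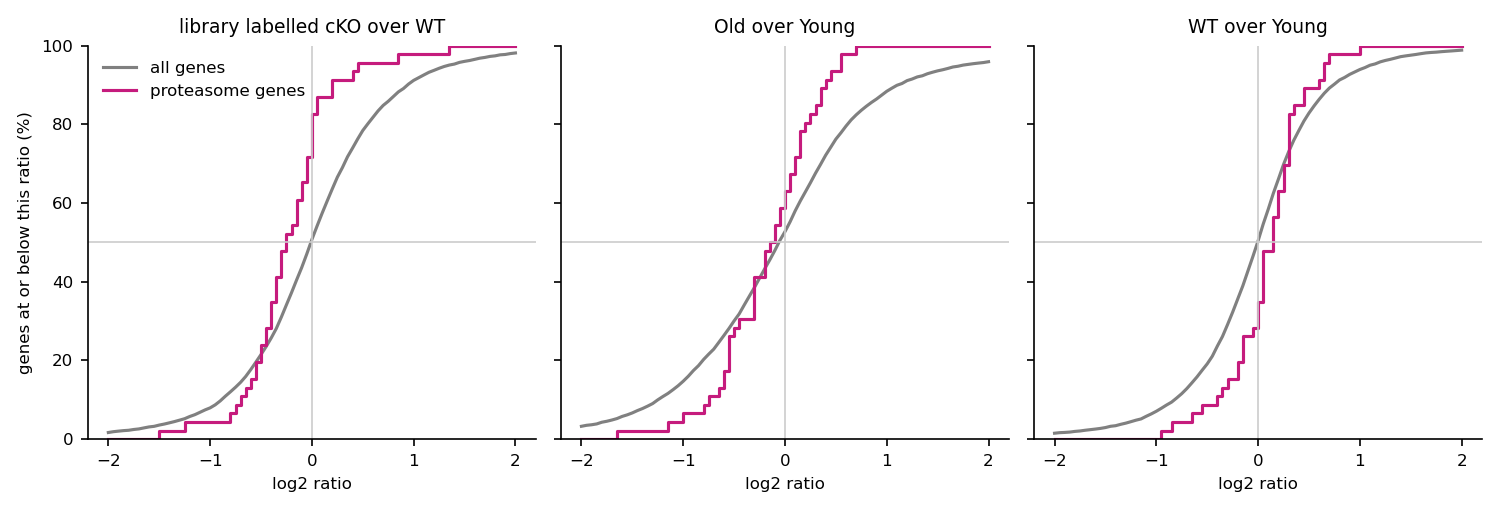
Cumulative share (%) of genes at or below each log2 ratio for the proteasome genes and for all genes with 20 or more reads over both libraries, in the library labelled cKO over WT, Old over Young and WT over Young. The proteasome curve crosses 50% left of all genes in the first panel (median -0.27 against -0.01), slightly left in the second (-0.17 against -0.06) and right in the third (0.12 against 0).

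Parts of the particle differed in direction between Old and Young. All 7 alpha ring genes had ratios below 1, under each of the 3 scalings, and summed to 2305 reads in Young and 1769 in Old, a ratio of 0.840 (0.789 to 0.894). Psma4 was the lowest, with 229 and 121 reads and a ratio of 0.579 (0.460 to 0.724), and Psma3 was at 0.969 (0.839 to 1.12). The constitutive catalytic genes Psmb5, Psmb6 and Psmb7 summed to 599 reads in Young and 721 in Old, a ratio of 1.32 (1.18 to 1.47). With scaling by total reads this became 1.18 (1.06 to 1.32), and Psmb6 turned to below 1. The core as a whole stood at 1.01 (0.962 to 1.05), or 0.902 with total reads.

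Old over Young showed the ATPase genes at a summed ratio of 0.849 (0.792 to 0.910), with 5 of 6 below 1. The exception was Psmc3, with 785 and 779 reads and a ratio of 1.09 (0.983 to 1.201), which total reads turned to below 1. Psmc2 was at 0.674, Psmc4 at 0.695 and Psmc5 at 0.730, each with an interval below 1. Non-ATPase genes went both ways. Psmd8 had 782 reads in WT against 574 in the library labelled cKO, and 760 in Young against 1097 in Old. Old was the highest library, at 1.58 of Young (1.44 to 1.74) and 1.41 of WT (1.28 to 1.54), short of the bound. Psmd1, a large scaffold subunit of the base, had 273 reads in WT against 310 in the library labelled cKO, and 298 in Young against 153 in Old. Old was the lowest, at 0.562 of both Young (0.460 to 0.685) and WT (0.458 to 0.687), also short of the bound.

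Lid genes, of which Psmd8 is one, were divided in Old. Psmd14, the deubiquitinase that trims ubiquitin chains from bound substrates, had 156 reads in WT against 128 in the library labelled cKO, and 176 in Young against 106 in Old. Old was the lowest, with a ratio to Young of 0.659 (0.513 to 0.844). Its partner Psmd7 was at 0.622 (0.466 to 0.826) on 139 and 79 reads, and the scaffold gene Psmd3 at 0.649 (0.534 to 0.786) on 292 and 173; none of these was called. Psmd13 went the other way, with 646 and 760 reads and a ratio of 1.29 (1.16 to 1.43). Psmd11, also of the lid, stood at 1.00 (0.908 to 1.11) on 850 and 778 reads. Psmd6 and Psmd12 had intervals that included 1, on at most 124 reads. In the library labelled cKO over WT, Psmd3, Psmd6, Psmd7, Psmd12, Psmd13 and Psmd14 ran from 0.774 for Psmd6 to 1.00 for Psmd7, and the remaining ATPase genes were Psmc1 at 0.917, Psmc2 at 0.995 and Psmc5 at 0.749.

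Psme3 was lower in Old than in Young, at 0.644 (0.590 to 0.702), but Old and WT did not differ beyond counting error (0.974, 0.884 to 1.07). The other activators had ratios to Young above 1, which ran from 1.01 for Psme2 to 1.23 for Psme1. Scaling by total reads put Psme2 and Psme2b below 1. Psmg1 was at 0.302 of Young on 29 and 8 reads (0.119 to 0.677).

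The comparison of Old with Young and that of the library labelled cKO with WT share no library. Of 46 members, 24 were below 1 in both (52.2%) and 3 above 1 in both (6.52%). Of 10938 genes, 27.8% were below 1 in both and 23.0% above 1 in both. For the members, the separate counts, 38 and 29 below 1, by themselves give 24.0 and 2.96. The 2 comparisons thus showed no overlap of direction beyond that. The 14 members that were below 1 in the library labelled cKO and above 1 in Old (30.4%, against 23.0% of all genes) included Psmb2, Psmb5 and Psmd8. With the 4 libraries on 1 scale, Old held the lowest value for 19 of 46 members and the library labelled cKO for 17, and WT held the highest for 20. This was counted for the members alone, so whether all genes are spread over the libraries in the same way was not tested.

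**Figure D4:**
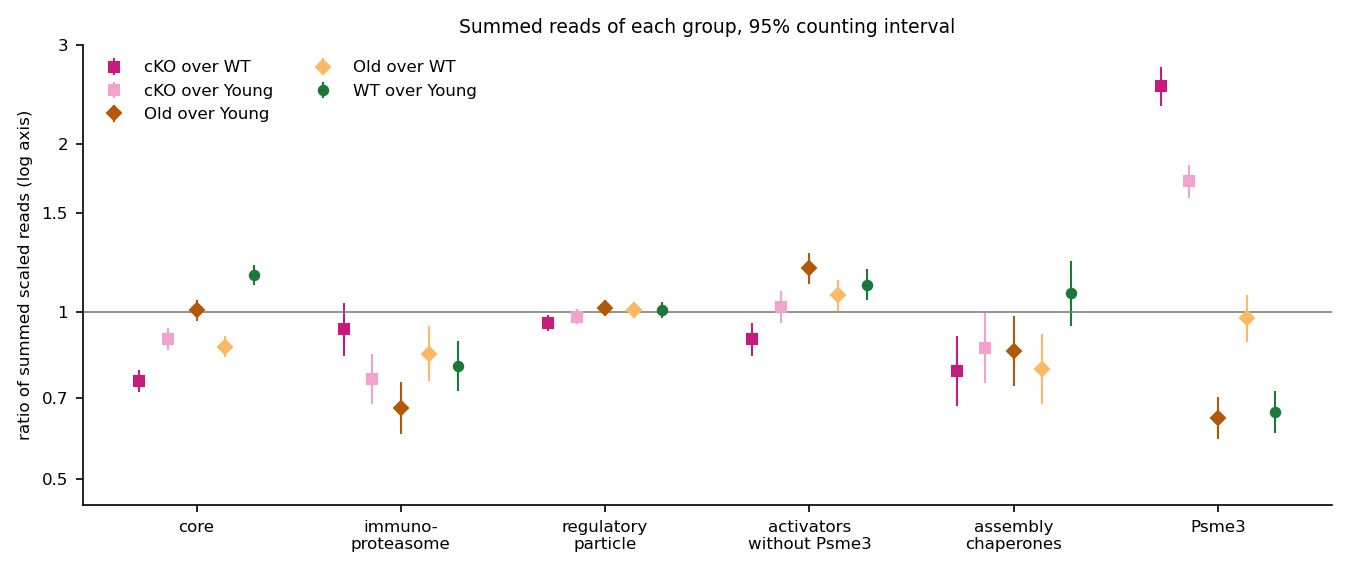
Ratio of summed scaled reads (log axis) for each group of subunits and for Psme3, with exact 95% counting intervals, in 5 comparisons of the 4 libraries. The core is at 0.752 in the library labelled cKO over WT and at 0.892 over Young, the immunoproteasome at 0.672 in Old over Young, and the regulatory particle between 0.952 and 1.02 throughout with this scaling (TMM), but at 0.911 in Old over Young with total reads.

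Sequence before the RefSeq start sites of the catalytic genes is shown because constitutive and inducible subunits were counted against each other, and that of Psme3 because it was the member called higher. RefSeq promoters (GRCm38.p6) were matched for 41 of the 48 genes, in 44 windows. The 250 bases before each start site were searched on both strands for 3 motifs, given 5′ to 3′. TGACNNNGC, the core of the antioxidant response element bound by Nfe2l1 and Nfe2l2, was in 5 of 44 windows (11.4%) and in 10.2% of all 32851 windows. GAAANNGAA, a core of the interferon response element, was in 3 (6.82%, against 7.13%). CCAAT was in 14 (31.8%, against 33.8%). The motifs do not contain each other, and a match describes letters and not a bound site. Capitals below mark the matches. Psmb5 (chr14:54617996-54618245, minus strand) held the antioxidant core, whose first base was 47 bases before the start, and Psmb6 (chr11:70525107-70525356, plus strand) held it at 9 bases. Psmb9 (chr17:34187331-34187580, minus strand) and Psme3 (chr11:101315963-101316212, plus strand) each held a reversed CCAAT, at 8 and 14 bases. Psmb8 (chr17:34197945-34198194, plus strand) and Psmb10 (chr8:105938393-105938642, minus strand) held none of the 3. The windows of Psmb8 and Psmb9 lay wholly within the spans that the deposited tables give these genes, and those of Psmb5 and Psmb10 by 27 and 52 of 250 bases, so they are upstream of a RefSeq start but not of the whole gene as counted. Psmb7 was not matched.
Psmb5: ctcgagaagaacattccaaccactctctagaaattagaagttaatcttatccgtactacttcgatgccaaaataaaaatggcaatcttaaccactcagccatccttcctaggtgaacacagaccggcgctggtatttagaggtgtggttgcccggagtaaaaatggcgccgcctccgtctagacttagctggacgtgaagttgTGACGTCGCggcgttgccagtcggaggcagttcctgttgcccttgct
Psmb6: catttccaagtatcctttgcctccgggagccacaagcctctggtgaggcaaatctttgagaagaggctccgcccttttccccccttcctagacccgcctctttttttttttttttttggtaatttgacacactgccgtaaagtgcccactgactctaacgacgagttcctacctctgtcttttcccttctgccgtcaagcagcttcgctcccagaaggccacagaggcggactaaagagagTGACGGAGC
Psmb8: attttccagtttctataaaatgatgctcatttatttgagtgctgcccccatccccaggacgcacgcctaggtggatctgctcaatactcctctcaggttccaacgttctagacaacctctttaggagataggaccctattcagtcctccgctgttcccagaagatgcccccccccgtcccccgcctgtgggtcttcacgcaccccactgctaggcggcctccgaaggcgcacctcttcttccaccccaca
Psmb9: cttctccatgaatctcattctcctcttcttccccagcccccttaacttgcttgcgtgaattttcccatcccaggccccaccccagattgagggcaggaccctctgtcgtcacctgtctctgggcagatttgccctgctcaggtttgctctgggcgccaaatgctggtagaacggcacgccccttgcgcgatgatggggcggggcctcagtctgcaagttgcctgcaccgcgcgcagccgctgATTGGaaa
Psmb10: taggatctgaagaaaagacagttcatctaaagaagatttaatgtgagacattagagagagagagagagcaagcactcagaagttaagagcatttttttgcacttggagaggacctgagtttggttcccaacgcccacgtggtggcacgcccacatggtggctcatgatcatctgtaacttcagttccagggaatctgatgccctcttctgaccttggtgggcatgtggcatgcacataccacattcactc
Psme3: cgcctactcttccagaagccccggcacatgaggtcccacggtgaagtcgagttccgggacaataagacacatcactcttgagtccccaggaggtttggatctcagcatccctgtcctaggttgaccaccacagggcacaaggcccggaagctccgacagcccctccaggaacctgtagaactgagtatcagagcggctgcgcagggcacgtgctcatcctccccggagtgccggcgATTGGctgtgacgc

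Inducible subunits made up a smaller share of catalytic messages in Old than in any other library. Psmb8, Psmb9 and Psmb10 accounted for 664 of the 1246 catalytic reads in WT (53.3%, exact 95% interval 50.5% to 56.1%), 628 of 1043 in the library labelled cKO (60.2%, 57.2% to 63.2%), 908 of 1507 in Young (60.3%, 57.7% to 62.7%) and 557 of 1278 in Old (43.6%, 40.8% to 46.3%). A share of this kind does not depend on how libraries are scaled. The interval of Old overlapped no other, and the interval of WT overlapped neither Young nor the library labelled cKO, so that the 2 wild-type libraries of 3 months differed too. Counted per gene length the shares were 37.5%, 44.1%, 44.6% and 27.1%, in the same order.

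Old differed from Young at 2 of the 3 catalytic positions. Psmb10, which replaces Psmb7, had 216 reads in WT against 211 in the library labelled cKO, and 306 in Young against 135 in Old. Old was lowest, with a ratio of 0.483 to Young (0.392 to 0.593), called lower, and 0.626 to WT (0.501 to 0.780), not called. Psmb7 had 146, 90, 135 and 164 reads in that order. The share of Psmb10 in the pair was 59.7% in WT against 70.1% in the library labelled cKO, and 69.4% in Young against 45.2% in Old (exact interval 39.4% to 50.98%). The authors' deposited table gave Psmb10 a log2 fold change of -1.05, a p of 0.0171 and an adjusted p of 0.0948.

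Psmb8, which replaces Psmb5, had 237 reads in WT against 273 in the library labelled cKO, and 412 in Young against 254 in Old. Young was the one high library: Old was at 0.675 of Young (0.575 to 0.791) and at 1.07 of WT (0.896 to 1.29). Psmb5 had 306, 231, 324 and 419 reads, highest in Old, at 1.42 of Young (1.22 to 1.64) and 1.37 of WT (1.18 to 1.59). The share of Psmb8 in the pair was 43.6%, 54.2%, 56.0% and 37.7% in the same order of libraries. The interval of Old, 34.1% to 41.5%, lay apart from that of Young, 52.3% to 59.6%. It overlapped that of WT, 39.4% to 47.9%. Both genes share sequence with other transcripts, 54.1% of words for Psmb5 and 11.9% for Psmb8. Adding the reads of Gm3375, the transcript closest to Psmb5, gave 1.42 (1.23 to 1.65) for Old over Young.

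At the third position the shares of the inducible gene lay close together. Psmb9, which replaces Psmb6, had 211 reads in WT against 144 in the library labelled cKO, and 190 in Young against 168 in Old. Its ratio of Old to Young was 0.968 (0.782 to 1.198), and its share in the pair was 61.9%, 60.5%, 57.6% and 54.9%, with intervals that all overlapped. Tap1, a peptide transporter gene that adjoins Psmb9 and was picked after its values were seen, had 110, 110, 118 and 94 reads. The 3 inducible genes had unlike ratios in the other comparison too. In the library labelled cKO over WT, Psmb8 was at 1.13 (0.947 to 1.35), Psmb10 at 0.960 (0.790 to 1.17) and Psmb9 at 0.671 (0.539 to 0.833).

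**Figure D5:**
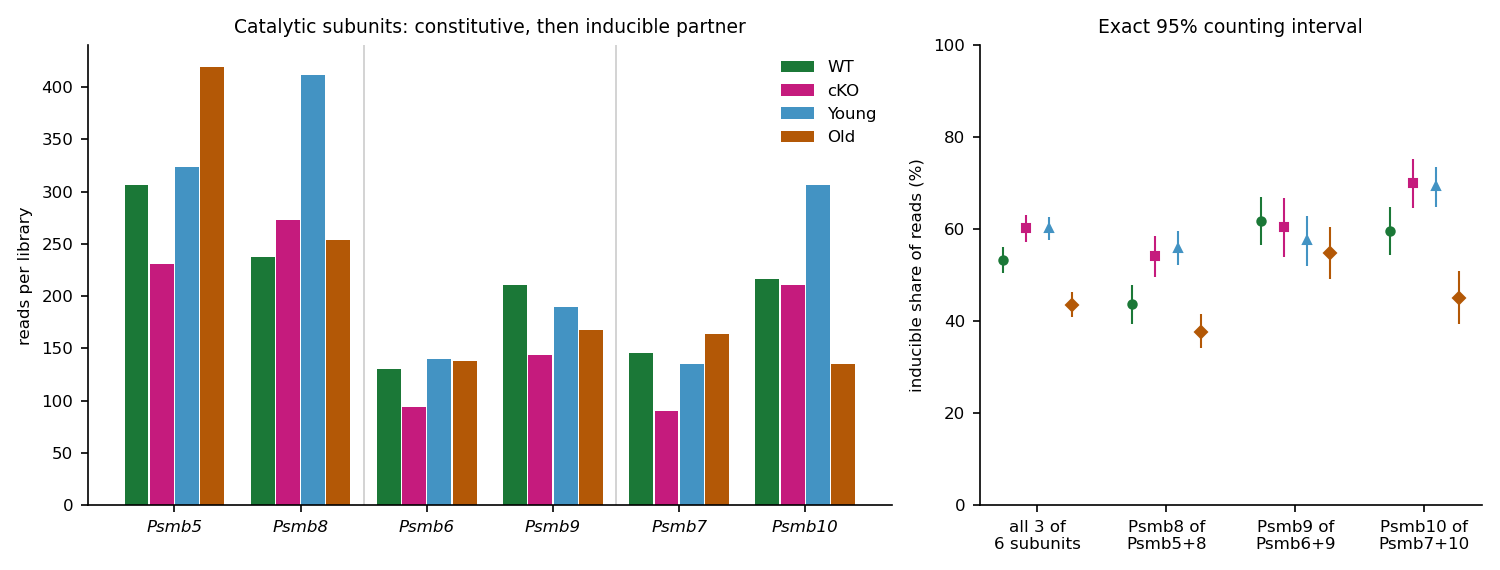
Left, reads per library (1 bar per library, linear axis from 0) of each constitutive catalytic gene and its inducible partner. Right, inducible share of reads (%) with exact 95% counting intervals, for the 3 positions together and for each pair: Old is lowest at 43.6% in all and at 45.2% for Psmb10, while the shares of Psmb9 overlap.

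Immune cells express the inducible subunits strongly, and their markers differed between these libraries. The 8 B cell markers summed to 5856 reads in WT against 5524 in the library labelled cKO, and 4967 in Young against 1392 in Old, and 7 of 8 were called lower in Old than in Young. The 12 neutrophil markers summed to 1186, 697, 555 and 14700 reads, and all 9 with enough reads were called higher in Old; Elane was not listed, and Ltf, Camp and Mpo were at 0 in Young. The 10 T and NK cell markers summed to 703, 617, 1193 and 670 reads, in the same order, with 3 of 6 called lower in Old. The 9 monocyte markers summed to 61336, 41178, 63869 and 47395 reads, nearly all of them from Lyz2 (60816, 40825, 63478 and 46508), which was not called. Of the 5 monocyte markers with enough reads 3 were called higher in Old and 0 lower, with a median log2 ratio of 0.94. Ccr2 was at 3.37 (2.66 to 4.295) and Csf1r at 5.38 (3.75 to 7.93), and Cd14 had 0 reads in Young and 188 in Old. Not all monocyte markers rose: 6 of the 8 in that median had ratios above 1, and Lyz2 was at 0.802 (0.793 to 0.812). Adgre1, under the minimum and picked after its values were seen, had 47 reads in Young and 16 in Old. Of all genes with enough reads, 10.4% were called higher in Old than in Young and 12.9% lower. The part of these immune cells in the inducible share was not tested.

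A list of 12 genes held interferon regulators and, for the larger part, genes of peptide loading and class I molecules. In Old over Young, 1 of 9 with enough reads was called lower and none higher, against a background share of 23.3%. The median log2 ratio of the list was -0.07. The called gene was Irf8, a transcription factor of immune cells, with 550 reads in WT against 601 in the library labelled cKO, and 946 in Young against 314 in Old, a ratio of 0.363 (0.319 to 0.413). The other regulators of the list, Irf1 and Nlrc5, were picked after their values were seen. They were at 0.818 (0.684 to 0.978) and 0.786 (0.669 to 0.922), not called. WT also lay below Young for Irf1, Irf8 and Nlrc5, at 0.645, 0.635 and 0.617. Against WT, Old was lower for Irf8, at 0.572, and higher for Irf1 and Nlrc5, at 1.27 each. The peptide loading genes Tapbp, Pdia3 and Calr were at 1.40, 1.35 and 1.34. In the library labelled cKO over WT, B2m, the light chain of class I molecules, was called lower at 0.660 (0.657 to 0.663) on 445735 and 299438 reads. WT was the high library, since B2m had 298567 reads in Young and 283208 in Old.

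A list of 8 genes was built around the Nfe2l1 pathway, which raises proteasome gene transcription when proteasomes are impaired. It also held Nfe2l2 and Keap1, and all 8 genes were listed. Nfe2l1 itself had 374 reads in WT against 437 in the library labelled cKO, and 384 in Young against 439 in Old and was called in neither comparison. Nfe2l2, its relative in the oxidative stress response, had 870, 1511, 735 and 1131 reads. It was called higher both in the library labelled cKO over WT, at 1.71 (1.57 to 1.86), and in Old over Young, at 1.69 (1.53 to 1.85). Young was the lowest library. With WT as the reference Old was at 1.303 (1.19 to 1.43), which was not called, while the library labelled cKO over Young was called higher at 2.26 (2.06 to 2.47). Its small Maf partner gene Mafg was called higher in Old, at 1.91 (1.74 to 2.09). The list held 1 call among 7 genes in the first comparison and 2 in the second, with medians of 0.20 and -0.17 on the log2 scale. The background shares of all genes in these comparisons were 13.5% and 23.3%.

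Proteins that work with the proteasome were examined in a list of 20 genes, of which 19 were listed. In the library labelled cKO over WT, 1 of 18 with enough reads was called lower and 0 higher, and the median log2 ratio was -0.15. There the background share was 13.5%. Uchl5, a deubiquitinase of the regulatory particle, had 133 reads in WT against 54 in the library labelled cKO, and 100 in Young against 96 in Old. The library labelled cKO was the lowest, with a ratio to WT of 0.399 (0.285 to 0.551). WT was the highest, and against Young the ratio was 0.592 (0.417 to 0.833), which was not called. Sem1, a lid subunit that the name rule does not match, was at 0.630 (0.532 to 0.744). In Old over Young the deubiquitinase gene Usp14, with 127 and 50 reads, was called lower at 0.431 (0.304 to 0.602). It was the 1 call among 18 genes with enough reads, 0 were called higher, and the median was 0.07. The background share of that comparison was 23.3%.

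Among 9 genes for ubiquitin and its activation, none of 8 with enough reads was called in the library labelled cKO over WT, where the median log2 ratio was -0.34 and 1 of 9 ratios was above 1. There the background share was 13.5%. Uba6, a ubiquitin-activating enzyme, was at 0.526 (0.398 to 0.691) and Ube2l3, a conjugating enzyme, at 0.682 (0.624 to 0.746). In Old over Young, Rps27a, which encodes ubiquitin fused to a ribosomal protein, was called lower, with 685 and 330 reads and a ratio of 0.527 (0.461 to 0.602). It was the 1 call among 7 genes with enough reads, where the background share was 23.3%. Ubb, a polyubiquitin gene and the most abundant of the list, had 20488 reads in WT against 17271 in the library labelled cKO, and 22846 in Young against 31023 in Old. Old was the highest, at 1.49 of Young (1.46 to 1.51), short of the bound.

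WT and Young carry the same genotype label and age, so the distance between them shows how far these 2 pools of wild-type mice lay apart. WT mice were littermates of the knockout mice and Young mice belonged to the comparison of ages. Differences of origin and of pool therefore cannot be told apart. Psmb2 was called higher in WT and Psmf1 lower, out of 43 members with enough reads. Of all 6373 genes 2.59% were called higher and 2.73% lower, together 5.32%; at a bound of 2-fold 1% were called and no member. The median log2 ratio of the members was 0.12, with 30 above 1 and 16 below, and became 0.01 with scaling by total reads, which took the median of all genes from 0 to -0.12. With total reads Psmb2 was no longer called, and Psmf1, Psme3 (0.611) and Psmd9 (0.465) were called lower in WT, with a background share of 6.34%. The core sum was 1.16 of Young (1.11 to 1.21) and the immunoproteasome sum 0.799 (0.722 to 0.884).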

How the data were processed

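Total RNA of platelets pooled from 7 mice per group was sequenced, 1 library per group, with no replicate. Reads were aligned to mm10 with HISAT2 2.0.5, counted with featureCounts 1.5.0-p3 and processed with DESeq2 1.20.0, per the submitters' processing notes, which give no order or settings. The deposited signal values are counts scaled by the authors. Every value was a whole multiple of 1 read (tolerance 0.02 read), so reads were recovered. The authors' deposited tables also give log2 fold changes, p-values, adjusted p-values and gene lengths. How p-values came from 1 library per group is unstated. The deposited fold changes rest on the same reads as the ratios given here and are not a second measurement. For Psme3 in the library labelled cKO over WT, both log2 values were 1.342. A further 4 per-sample columns matched no sample and were not used. Genes with fewer than 2 reads over a table's libraries are not listed.

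Ratios used reads over library sizes scaled with TMM (edgeR 4.0.16, R 4.3.3) and exact Clopper-Pearson intervals (scipy 1.17.1). No count test was run, since no group has replicates. Medians used a pseudocount of 0.5 read. The calculation was tested on simulated data. All members could be named. From other lists, genes called and up to 4 of the largest ratios per comparison could be named, and not all of them were. Members and lists were chosen with earlier results of these data known, and 2 list genes are not reported here. Shared sequence was counted as 50-base words of GENCODE M21 transcripts found in other genes, and 12 members had at least 10%. Intervals cover counting error only: without molecular identifiers, several reads can come from 1 molecule.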

Additional observations from a re-analysis of the deposited data

How the results depend on the processing

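With a bound of 2-fold, members called went from 3 to 1 in the library labelled cKO over WT, and to 0 both in Old over Young and in WT over Young. With Young as the reference the library labelled cKO had 1 call, Psme3; Psmb2 (0.812) and Psma2 (0.714) were no longer called, and with WT as the reference for Old neither was Psmb10 (0.626). Scaling by total reads gave 5 calls in Old over Young in place of 2 and 4 in the library labelled cKO over WT in place of 3, where Psmf1 (1.82) was added. In WT over Young it turned 1 higher and 1 lower call into 0 higher and 3 lower, ending that of Psmb2 (1.81) and adding Psme3 and Psmd9. It moved the median log2 ratio to -0.22 in the library labelled cKO over WT, -0.32 in Old over Young and 0.01 in WT over Young, where all genes moved to 0.03, -0.22 and -0.12. With WT as the reference the median of Old was -0.29. Counted per kilobase, the inducible share of catalytic messages was 37.5% in WT against 44.1% in the library labelled cKO, and 44.6% in Young against 27.1% in Old. Total reads also turned ratios of members and of summed groups to the other side of 1, none of them called. In Old over Young the core sum went from 1.01 to 0.902, the regulatory particle from 1.02 to 0.911 (0.882 to 0.941) and its non-ATPase genes from 1.07 to 0.958 (0.924 to 0.994), and 10 of 46 members were above 1 in place of 17. No call and no median of the members reversed under the alternatives run, which also included DESeq2 1.42.0 size factors, a minimum of 20 reads, a pseudocount of 1 read, no minimum and leaving out members that share sequence. No paired analysis was possible because each group has 1 library, and for the same reason no library could be left out of a group. The depth left the chaperone genes Psmg1, Psmg2 and Psmg4 under 50 reads each, too few to evaluate.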
